A study of Homo sapiens with 8 samples.

Results

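Cadherins are calcium-dependent adhesion molecules, and catenins are the cytoplasmic proteins that tie most of them to the cytoskeleton. The 9 genes described here were fixed by name: the 5 cadherins CDH1, CDH3, CDH2, CDH24 and CDH13 and the 4 catenins CTNND1, CTNNB1, JUP and CTNNA1. Each symbol matched 1 of the 63677 gene IDs in the count files. They were followed over 8 RNA-seq libraries of PC9, a human lung adenocarcinoma cell line, in 4 groups of 2 libraries.

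The first pair of groups was PC9 parental and PC9-BrM3, the subline that the study relates to brain metastasis; both were untransduced sub-confluent cultures kept for 48 h before RNA was taken. The second pair was PC9-BrM3 cells that carried a lentiviral, doxycycline-inducible hairpin from Tet-pLKO: a non-target control (shNTC) or 1 hairpin against HSF1 (shHSF1, clone 7480). HSF1 is the heat shock transcription factor. Both groups of the second pair went through 5 days of puromycin and then 48 h of 500 ng/mL doxycycline. The labels do not say whether replicates are separate cultures, so p-values measure only the spread between these samples.

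In an epithelial adherens junction, E-cadherin (CDH1) or P-cadherin (CDH3) binds its like on the neighbouring cell. Inside the cell its tail holds p120-catenin (CTNND1), which keeps the cadherin at the surface, and either beta-catenin (CTNNB1) or its close relative plakoglobin (JUP). Alpha-catenin (CTNNA1) joins that complex to actin. CTNNB1 also acts in the nucleus in Wnt signalling, and JUP also sits in desmosomes. CDH13 differs from the rest: it is held in the membrane by a lipid anchor and has no tail to bind catenins. PC9 is known as a line with little alpha-catenin and loose cell contacts.

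RefSeq promoters were matched for 4 of the 9 genes: CDH2, CTNNA1, CTNNB1 and JUP, with 9 promoters in all. The 4 shown are upstream of the catenins whose counts changed after HSF1 knockdown, and each gives the 250 bases before a transcript start on GRCh38.p14. Capitals mark the 2 matches found to the letters searched.
JUP, start 1 (chr17:41786712-41786961, minus strand): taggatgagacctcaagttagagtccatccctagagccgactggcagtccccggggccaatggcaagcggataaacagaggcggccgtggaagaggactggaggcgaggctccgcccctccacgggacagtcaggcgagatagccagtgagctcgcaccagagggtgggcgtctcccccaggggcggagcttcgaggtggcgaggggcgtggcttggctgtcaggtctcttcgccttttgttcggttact
JUP, start 2 (chr17:41785977-41786226, minus strand): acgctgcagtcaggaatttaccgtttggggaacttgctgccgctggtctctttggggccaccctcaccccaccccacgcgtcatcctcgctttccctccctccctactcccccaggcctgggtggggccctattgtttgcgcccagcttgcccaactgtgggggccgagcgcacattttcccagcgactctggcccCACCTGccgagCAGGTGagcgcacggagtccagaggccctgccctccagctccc
CTNNB1 (chr3:41199255-41199504, plus strand): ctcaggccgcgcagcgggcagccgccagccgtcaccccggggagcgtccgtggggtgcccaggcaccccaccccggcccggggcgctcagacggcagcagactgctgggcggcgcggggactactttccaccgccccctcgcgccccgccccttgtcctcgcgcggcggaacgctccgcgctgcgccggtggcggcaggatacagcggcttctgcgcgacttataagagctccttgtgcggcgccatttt
CTNNA1, start 1 (chr5:138753175-138753424, plus strand): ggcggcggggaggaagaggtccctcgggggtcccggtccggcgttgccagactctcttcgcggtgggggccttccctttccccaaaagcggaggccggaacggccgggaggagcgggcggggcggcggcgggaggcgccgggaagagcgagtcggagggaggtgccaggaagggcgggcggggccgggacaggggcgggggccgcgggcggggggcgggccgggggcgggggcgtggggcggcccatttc
Both strands were searched for the heat shock element cores GAANNTTC and TTCNNGAA and for CACCTG, the E-box bound by Snail-family repressors. None of the 9 promoters held either heat shock core. Among all 35116 promoters of the table, 5.78% held GAANNTTC and 6.62% held TTCNNGAA in a window of this length. Start 2 of JUP held the E-box on both strands, in opposite orientation, at 54 and 43 bases before the start. No other promoter of the 4 genes held it, against 17.5% of all promoters. A match is only a run of letters, and its absence says only that the letters are not in that window.

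Library totals ran from 33550140 to 56715336 counts. The pairs were sequenced apart, the untransduced cells on lane 7 and the hairpin cells on lane 1, so lane, transduction, puromycin and doxycycline cannot be told apart between them, and each comparison stays within a pair. The library labelled PC9-BrM3 replicate 2 stands apart: 17.3% of its counts were mitochondrial, against 1.4% to 6.23% in the other 7. Results for the subline are therefore also given without it. All 7 epithelial markers reached 1 TPM in every group, and no immune or fibroblast marker did. Of the endothelial markers only CDH5 reached 1 TPM, and of the neural and glial markers only MBP, each in all 4 groups (summed neural and glial level 13.7 to 33.2 TPM). Of the lung alveolar markers only SFTPB reached it, in the untransduced groups alone. HSF1 itself, at 178 and 184 CPM in shNTC and 15.6 and 13.5 CPM in shHSF1, fell by 3.61 ± 0.08 (log2, SE) with adjusted p = 2.66e-08.

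Levels below are CPM (read counts scaled to library size with TMM factors) when 1 gene is followed across libraries. They are TPM (transcript levels corrected for exon length) when genes are compared within a library, and for the genes of the lists further on. TPM carries no TMM factors, so log2 changes printed beside TPM values come from the fit and not from those values. By TPM the transcripts fell into 3 tiers. CTNND1, CTNNB1, CDH1 and CDH3 stood between 83.8 and 361 TPM in every library, CTNNA1 stood between 10.8 and 24 TPM, and CDH24 stood between 3.35 and 8.2 TPM. JUP lay between these tiers in the untransduced cells, at 40.5 to 53.3 TPM, and with the upper genes in the hairpin cells, at 131 to 238 TPM. CDH2, the N-cadherin of nerve and mesenchyme, had at most 2 counts in any library. CDH13 was counted at a usable level only in PC9 parental.

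CTNND1 was first in all 8 libraries, and its lead over CTNNB1 was larger than the spread in PC9 parental, shNTC and shHSF1. In PC9 parental the means were 287 ± 17.8 TPM for CTNND1 and 245 ± 9.93 TPM for CTNNB1 (SD, n = 2). In shNTC they were 292 ± 26.4 and 234 ± 14.4 TPM, and in shHSF1 296 ± 11.4 and 220 ± 1.64 TPM. In PC9-BrM3 the 2 libraries differed widely, but CTNND1 led within each. It had 361 against 218 TPM in replicate 1 and 216 against 83.8 TPM in replicate 2. CTNNB1 and CDH1 were neighbours in the order of every library but PC9-BrM3 replicate 2, at 245 ± 9.93 and 214 ± 24.6 TPM in PC9 parental, where the gap was about as large as the spread of CDH1. In shHSF1, CDH1 (240 ± 4.25 TPM), JUP (228 ± 13.6 TPM over its full exon length) and CTNNB1 (220 ± 1.64 TPM) lay close. CDH1 stood above CTNNB1 in both replicates. Over that length JUP was above both genes in replicate 1 and below both in replicate 2. With the bases it shares with the keratin gene KRT17 left out, JUP would stand higher, so its place here depends on the length used.

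**Figure D1:**
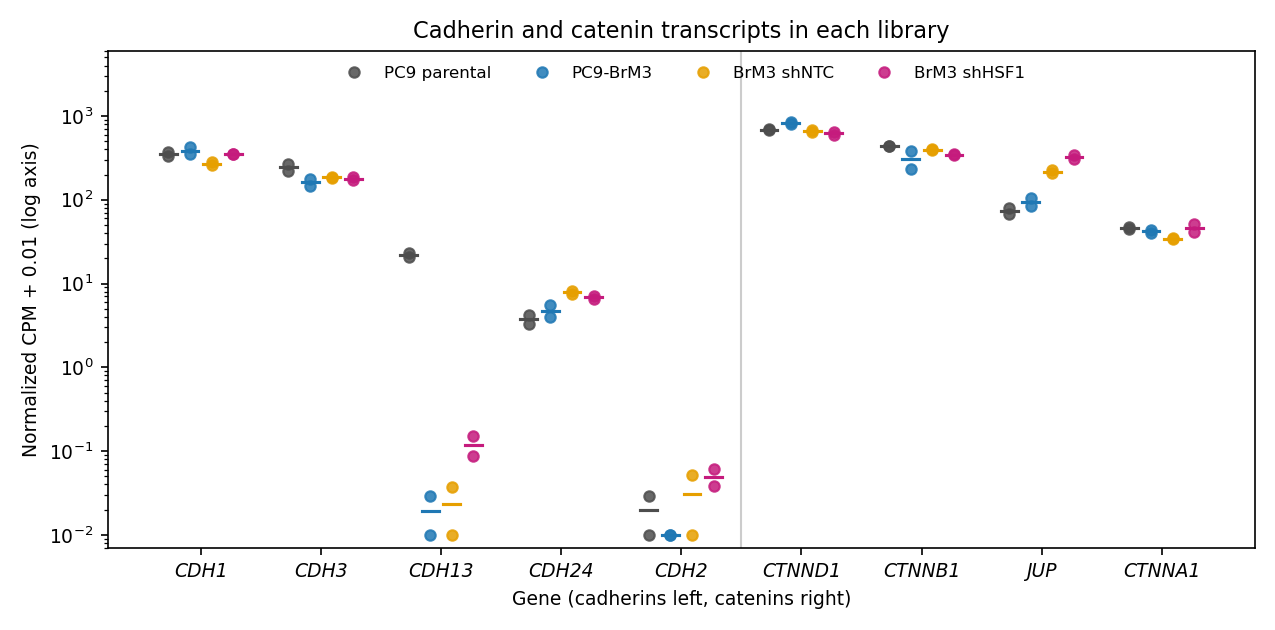
Normalized CPM plus 0.01 on a log axis for the 9 genes, with 1 point per library and a bar at each group mean (n = 2). CDH13 separates PC9 parental, near 22 CPM, from all other libraries, all of which lie below 0.15 CPM, while JUP steps upward from the untransduced to the hairpin groups.

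The comparison of PC9-BrM3 with PC9 parental asks which transcripts differ in the brain-metastatic subline. Among the 9 genes 1 changed: CDH13, the lipid-anchored cadherin, was all but lost from PC9-BrM3. Of the 8 genes with enough counts to test, 0 rose, 1 fell and 7 did not pass the test (edgeR quasi-likelihood F test, Benjamini-Hochberg adjusted p under 0.05 over all genes tested); 2 of the 8 had an unadjusted p under 0.05, and DESeq2 also called CDH13 alone. Over all 17372 genes tested 7.14% passed, 3.87% higher and 3.27% lower. The median log2 change was -0.01 over the tested members and 0.01 over all genes.

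CDH13 gave 1177 and 1196 counts in the PC9 parental libraries, which is 20.8 and 22.9 CPM. It gave 1 and 0 counts in PC9-BrM3. The hairpin cells, which derive from PC9-BrM3 and were sequenced on the other lane, held 0 and 1 counts in shNTC and 3 and 5 in shHSF1. The groups did not come near each other: all 6 libraries of PC9-BrM3 origin were below 0.15 CPM. Against the floor of 3 counts, which lay between 0.0531 and 0.0902 CPM, only the shHSF1 libraries reached or passed it.

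The ratio of the summed counts, 2373 against 1 and scaled to depth, was 1890 (exact 95% interval 338 to 74600, counting error only). The fitted change was -10.59 ± 0.44 on the log2 scale (adjusted p = 0.00156), a size that depends on the prior count. It passed in all 10 other settings tried, with adjusted p between 9.38e-56 and 0.00171. In bulk samples fewer cells with a transcript and less of it per cell cannot be told apart. The gene spans 1169.8 kb of chromosome 16 (82660408 to 83830204, GRCh37, plus strand). Its neighbours MPHOSPH6 and HSBP1, picked after their values were seen, were still counted in every library. MPHOSPH6 had 24 and 23.8 CPM in PC9 parental and 22.7 and 24.6 CPM in PC9-BrM3. HSBP1 had 138 and 146 CPM in PC9 parental and 107 and 88.2 CPM in PC9-BrM3.

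CDH3, P-cadherin, lay at 222 and 266 CPM in PC9 parental and at 146 and 177 CPM in PC9-BrM3. The 2 groups did not overlap, with a log2 difference of -0.59 ± 0.17, but the adjusted p was 0.108. The difference passed the test without PC9-BrM3 replicate 2 (-0.75, adjusted p = 5.77e-05) and without PC9-BrM3 replicate 1 (-0.46, adjusted p = 0.0017). Over its 10 alternative settings the adjusted p ran from 5.77e-05 to 0.765.

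CDH1, E-cadherin, lies next to CDH3 on chromosome 16, on the same strand (CDH3 at 68670092 to 68756519, CDH1 at 68771128 to 68869451, GRCh37). It did not share the difference: it stood at 334 and 372 CPM in PC9 parental and at 349 and 422 CPM in PC9-BrM3. Its groups overlapped, and the difference was 0.13 ± 0.16 (adjusted p = 0.642), or -0.02 without PC9-BrM3 replicate 2. CDH24, a minor classical-type cadherin, also overlapped, at 4.18 and 3.27 against 3.93 and 5.47 CPM (0.34 ± 0.28, adjusted p = 0.487). Its difference was 0.07 without PC9-BrM3 replicate 2.

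CTNNB1 had 434 CPM in both PC9 parental libraries and 380 and 230 CPM in PC9-BrM3. Most of its difference, -0.50 ± 0.25 (adjusted p = 0.279), came with replicate 2 of PC9-BrM3, the library rich in mitochondrial counts. Without that library it was -0.20, and without replicate 1 it was -0.91 (adjusted p = 9.65e-08); over the 10 settings the adjusted p ran from 9.65e-08 to 0.762. CTNND1 stood at 671 and 691 CPM in PC9 parental and at 841 and 792 CPM in PC9-BrM3 (0.27 ± 0.14, adjusted p = 0.301). Without PC9-BrM3 replicate 2 its difference was 0.30 (adjusted p = 0.0188, from 0.0188 to 0.909 over the settings).

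JUP had 66.7 and 79.9 CPM in PC9 parental and 83.8 and 104 CPM in PC9-BrM3 (0.36 ± 0.18, adjusted p = 0.27). The difference of JUP was 0.19 without PC9-BrM3 replicate 2, and 0.51 without replicate 1, where the library rich in mitochondrial counts stands alone. CTNNA1 had 45.3 and 47.5 CPM in PC9 parental and 43.7 and 39.8 CPM in PC9-BrM3 (-0.14 ± 0.15, adjusted p = 0.575). Its difference was -0.09 without PC9-BrM3 replicate 2. Neither pair of groups overlapped, but neither difference passed the test.

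How many of the 8 tested genes passed depended on which PC9-BrM3 library stood for the subline. With replicate 1 alone 3 passed (CDH3, CDH13 and CTNND1), while 30.8% of all genes did. With replicate 2 alone 6 passed (CDH1, CDH3, CDH13, CDH24, CTNNB1 and JUP), while 51.1% of all genes did. CDH13 and CDH3 were lower under both. In such fits the lone library is assumed to vary like the other group.

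**Figure D2:**
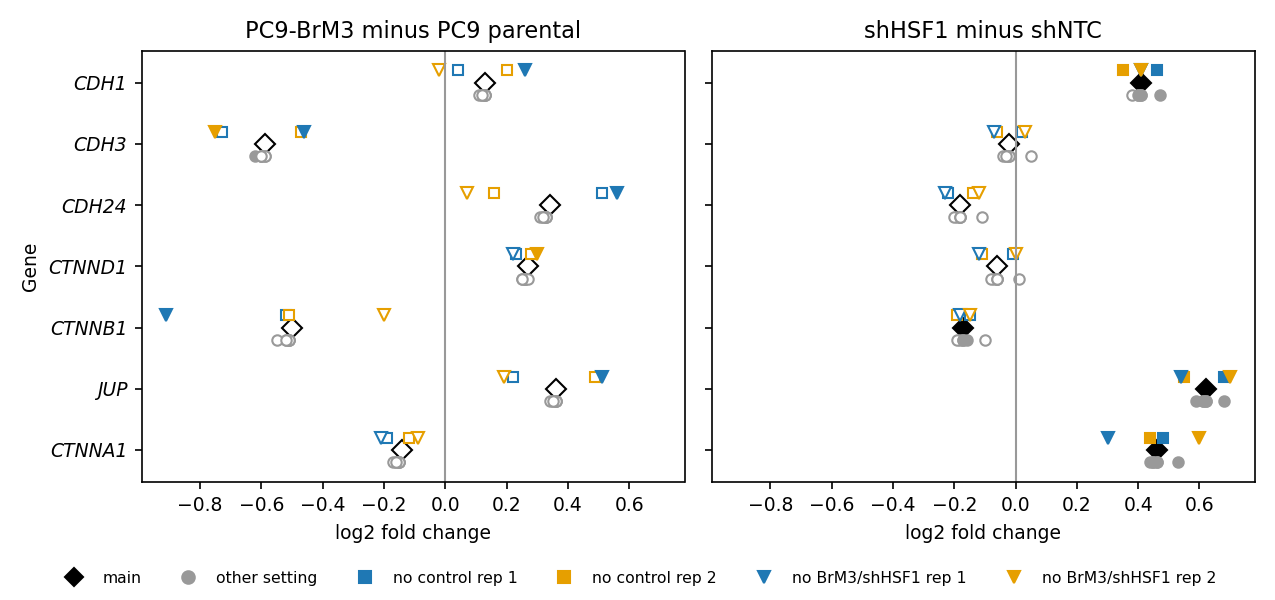
Log2 fold changes of 7 genes under each setting, with PC9-BrM3 minus PC9 parental on the left and shHSF1 minus shNTC on the right. Diamonds are the reported fit, grey circles other settings, squares fits without 1 control library, triangles fits without 1 PC9-BrM3 or shHSF1 library, and filled symbols mark an adjusted p under 0.05. On the left the triangles of CTNNB1 lie at -0.91 and -0.20, while on the right JUP stays between 0.54 and 0.70.

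The second comparison asks what HSF1 knockdown did in PC9-BrM3 cells. Here 4 of the 7 genes tested changed: JUP, CTNNA1 and CDH1 rose by 1.53, 1.38 and 1.33 times, and CTNNB1 fell by 1.12 times. CDH3, CDH24 and CTNND1 did not pass the test, and CDH2 and CDH13 had too few counts for it. The changed share of the members, 57.1%, stands beside 45.7% of all 16840 genes tested, of which 22.2% rose and 23.5% fell. The median log2 change of the tested members was -0.02, against 0.01 for all genes.

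JUP had 224 and 206 CPM in shNTC and 342 and 307 CPM in shHSF1. Both knockdown libraries lay above both controls, and the change was 0.62 ± 0.07 (log2, SE; adjusted p = 9.27e-05). The change passed in all 10 other settings (0.54 to 0.70, adjusted p 2.07e-16 to 0.0199). JUP (chromosome 17, 39775692 to 39943183, minus strand, GRCh37) shares 1021 of its 5963 exon bases, 17.1%, with the keratin gene KRT17 on the same strand. KRT17 had 2.83 and 2.45 CPM in shNTC and 80.5 and 62.1 CPM in shHSF1. The counting command carries no option to give a read to overlapping genes, so reads in the shared bases would count for neither; the part of KRT17 in the JUP values was not tested further.

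CDH1 had 278 and 260 CPM in shNTC and 351 CPM in both shHSF1 libraries. The groups did not overlap, and CDH1 rose by 0.41 ± 0.06 (adjusted p = 0.000382). The call was lost when all 8 libraries shared 1 estimate of the spread (0.38, adjusted p = 0.054, the highest of 1.77e-07 to 0.054 over the settings). CDH3, its neighbour on the chromosome, had 189 and 180 CPM in shNTC and 185 and 173 CPM in shHSF1. Those groups overlapped, with a difference of -0.02 ± 0.06 (adjusted p = 0.823).

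CTNNA1 had 34.7 and 33.9 CPM in shNTC and 51.1 and 41.7 CPM in shHSF1. Both knockdown libraries were higher, although they differed from each other by more than the controls did, and the change was 0.46 ± 0.10 (adjusted p = 0.00386). CTNNB1 had 398 and 390 CPM in shNTC and 348 and 344 CPM in shHSF1. The groups were apart but the change was small, -0.17 ± 0.05 (adjusted p = 0.0314). It did not pass in any of the 4 fits without 1 library (adjusted p 0.0636 to 0.13), with upper-quartile scaling (-0.10, adjusted p = 0.145) or when the 8 libraries were fitted together (adjusted p = 0.566), the range over all settings being 0.0241 to 0.566.

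CTNND1 stood at 677 and 637 CPM in shNTC and at 646 and 598 CPM in shHSF1, and these overlapped (-0.06 ± 0.06, adjusted p = 0.51). CDH24 had 7.58 and 8.06 CPM in shNTC and 7.04 and 6.56 CPM in shHSF1 (-0.18 ± 0.13, adjusted p = 0.285). CDH13 stayed near its floor, with 1 count over both shNTC libraries and 8 over both shHSF1 libraries, a ratio at equal depth of 9.13 (exact 95% interval 1.22 to 405, counting error only). Even the higher shHSF1 library, at 0.14 CPM, was far below the 20.8 and 22.9 CPM of PC9 parental.

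**Figure D3:**
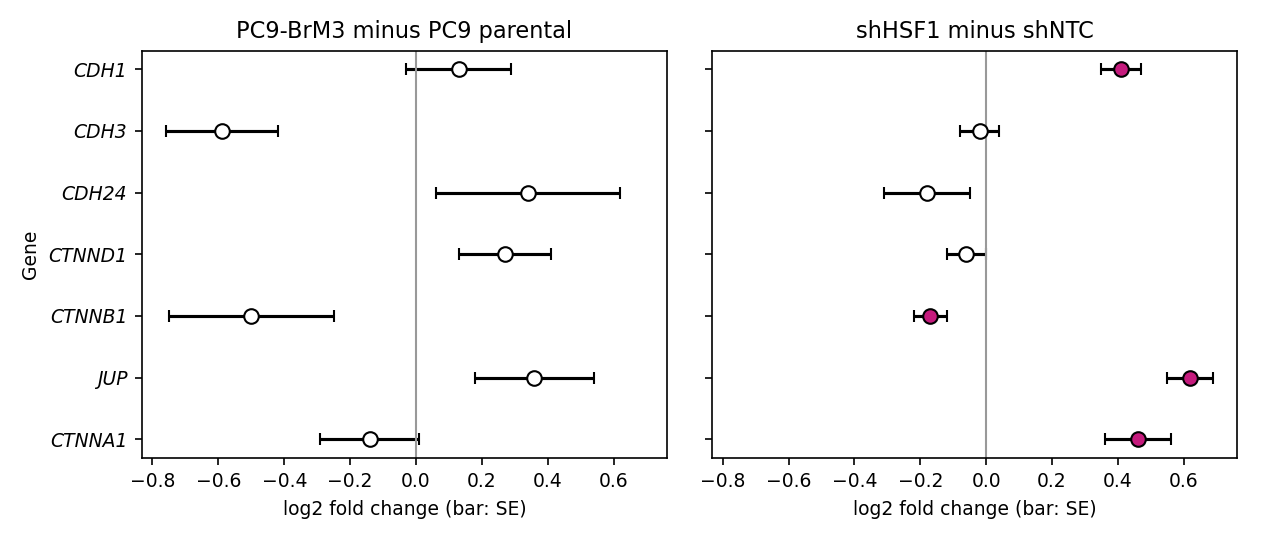
Log2 fold changes with standard errors (bars) for the 7 genes tested in both comparisons, without CDH13. Filled points have an adjusted p under 0.05 and open points do not: none of these 7 is filled for the subline, and 4 are filled for the knockdown, with JUP at 0.62 and CTNNB1 at -0.17.

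Because the members bind each other, their proportions were also set out by TPM within each library, as a description. CDH1 made up 55.0% and 53.2% of the summed CDH1 and CDH3 transcripts in PC9 parental and 66.1% and 66.0% in PC9-BrM3. The share was as steady inside PC9-BrM3 as anywhere, although its second library stood apart in other respects. In the hairpin cells it was 54.5% and 54.1% in shNTC and 60.7% and 62.3% in shHSF1. In both comparisons, then, the share of E-cadherin over P-cadherin was higher in the second group. CDH3 levels were lower in PC9-BrM3, though that difference did not pass the test, and CDH1 levels were higher in shHSF1. The share in shNTC was near that of PC9 parental, although shNTC cells are PC9-BrM3 cells. Across the lanes CDH1 lay 0.52 (log2) lower in shNTC than in PC9-BrM3. The cause of that step was not tested.

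Among the 4 catenins CTNND1 held the largest share in every library, from 38.5% in shHSF1 to 61.2% in PC9-BrM3. CTNNA1 held 2.2% to 3.3%, so CTNNB1 transcripts outnumbered CTNNA1 transcripts by 7.73 to 15.4 times. JUP was 7.1% and 8.2% of catenin transcripts for PC9 parental and 8.2% and 11.9% for PC9-BrM3. With the control hairpin it was 21.1% and 20.3%, and with the HSF1 hairpin 30.3% and 29.3%.

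JUP and CTNNB1 compete for the same stretch of the cadherin tail. JUP was 38.4% and 36.8% of their sum in shNTC and 52.1% and 49.7% in shHSF1, so the pair were near equal after knockdown. In PC9 parental it was 14.5% and 16.9%, and in PC9-BrM3 it was 19.6% and 33.3%, the latter in the library that stands apart. If the bases shared with KRT17 are left out of the length of JUP, the mean share goes from 37.6% to 42.1% in shNTC and from 50.9% to 55.6% in shHSF1.

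**Figure D4:**
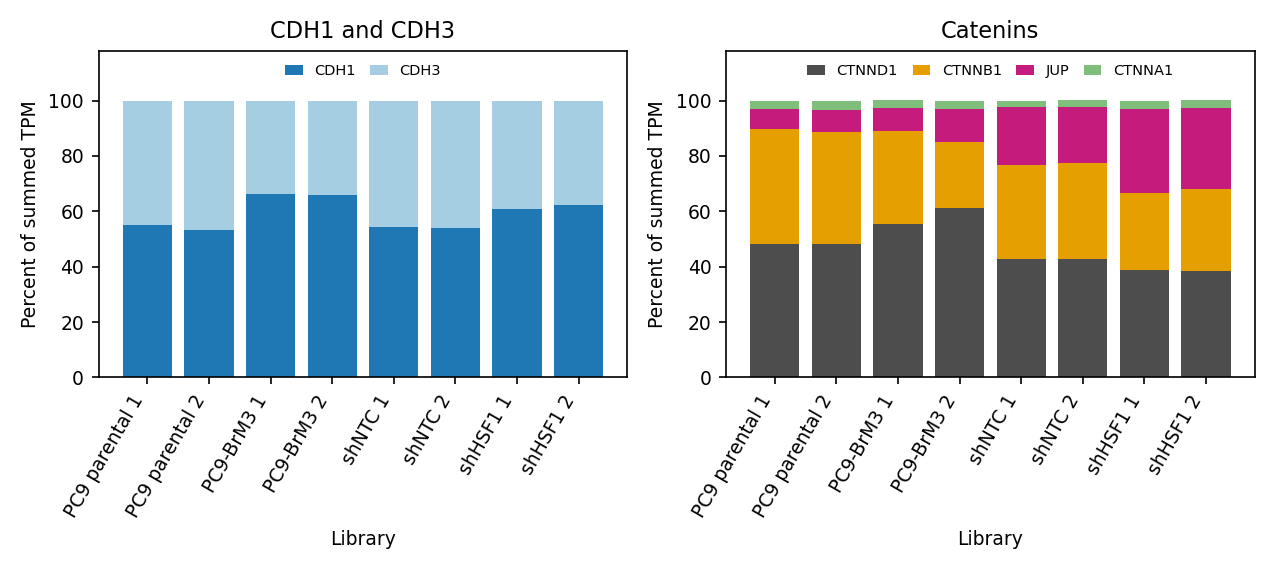
Share of summed TPM in each of the 8 libraries, for CDH1 and CDH3 (left) and for the 4 catenins (right), with bars from 0 to 100%. The CDH1 share is near 66% in PC9-BrM3 and near 54% in PC9 parental and shNTC, and the JUP share grows from 7.1% in PC9 parental replicate 1 to 30.3% in shHSF1 replicate 1.

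Over all 4 groups the mean log2 CPM of CDH13 spanned 5.46 and that of JUP 2.14, on a scale with 0.5 CPM added. The other 7 spanned less than 1. Most of the JUP span separates the 2 sets of libraries: shNTC lay 1.19 (log2) above PC9-BrM3, although both are PC9-BrM3 cells. Genes rich in G and C lay higher in the lane 1 libraries in general. In the GC quintile with the highest GC content (57.3% to 73.9% of the longest transcript) the median of that same difference was 0.88, and in the lowest quintile it was -0.22. JUP, at 61.5% GC, and CDH24, at 64.2% GC and a difference of 0.68, belong to that top quintile. The part of GC content in the JUP step was not tested. Within the knockdown pair the median of the top quintile was 0.09, against 0.62 for JUP.

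The 3 genes whose profile over the 8 libraries lay closest to that of JUP, among 11090 genes, were ZNF408, FLII and GRK6, at root mean square distances of 0.1, 0.11 and 0.11 on the log2 scale. FLII, an actin-binding protein of the gelsolin family, had 127 and 141 CPM in the parental libraries and 179 and 189 CPM in those of PC9-BrM3. With hairpins it had 380 and 370 CPM (shNTC) and 567 and 563 CPM (shHSF1). All 3 are GC-rich as well, at 61.7%, 59.9% and 62.0%. Closest to CDH13 among the same genes were LIFR, FAM167A and MILR1, at 0.7, 0.85 and 0.93. Candidates had to be tested in both comparisons, which CDH13 was not. Genes that, like CDH13, had too few counts in the hairpin libraries could therefore not be named. LIFR, the receptor of leukaemia inhibitory factor, had 76.8 and 74.9 CPM in PC9 parental and 2.8 and 2.92 CPM in PC9-BrM3. With hairpins it stood at 5 and 5.58 CPM (shNTC) and 6.24 and 5.97 CPM (shHSF1).

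The other genes of junctions and catenin signalling were taken from 11 lists. After HSF1 knockdown 82 of their 125 tested entries changed (65.6%), 47 higher and 35 lower, beside 45.7% of all genes (22.2% higher and 23.5% lower). With the 8 libraries fitted together it was 47 of 127, 23 higher and 24 lower, beside 21.4% of all genes. Upper-quartile factors gave 56 higher and 30 lower, beside 47.4% of all genes. Fewer changed when 1 library was left out, as was so over all genes. In PC9-BrM3 against PC9 parental 14 of 123 changed (11.4%), beside 7.14% of all genes. Without PC9-BrM3 replicate 2 the subline count was 48 of 124, beside 30.8% of all genes. Leaving out 1 PC9 parental library left far fewer than the 14 called, and calls over all genes also became fewer. No subline count of a list below therefore rests firmly on these 4 libraries.

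Among partners of the adherens junction 12 of 21 rose and 6 fell after knockdown (85.7% called, beside 45.7% of all genes). Their median log2 change was 0.32. LIMA1, which links alpha-catenin to actin, had 114 and 94.1 TPM in shNTC and 285 and 243 TPM in shHSF1 (1.27 ± 0.09, adjusted p = 9.66e-06). RAP1B, a small GTPase that promotes cadherin adhesion, fell by 1.55 ± 0.10 (adjusted p = 2.72e-06). In the subline 3 of 21 rose and 1 fell (19.0% called, beside 7.14% of all genes). LIMA1 rose there too (0.69 ± 0.14, adjusted p = 0.0418), with SVIL, an actin-binding protein (1.06 ± 0.16, adjusted p = 0.0217), and AFDN, which ties nectins to actin (0.92 ± 0.19, adjusted p = 0.0466).

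The desmosome list, where JUP also acts, moved both ways after knockdown, with 2 of 6 higher and 2 lower. That is 66.7% called, beside 45.7% of all genes. PKP2, a plakophilin, had 46.6 and 37.7 TPM in shNTC and 89.4 and 91.3 TPM in shHSF1 (1.03 ± 0.08, adjusted p = 6.15e-06). DSG2, the desmosomal cadherin desmoglein, had 174 and 155 TPM in shNTC and 96.7 and 99.8 TPM in shHSF1 (-0.82 ± 0.06, adjusted p = 3.59e-06). PERP, a membrane protein of desmosomes, fell by 0.36 ± 0.06 (adjusted p = 0.000876). In the subline 1 of 6 changed (16.7%, beside 7.14% of all genes), DSG2, which fell by 0.78 ± 0.14 (adjusted p = 0.0308). Of the other catenin-family genes 1 of 4 changed in each comparison (25.0%, beside 45.7% of all genes after knockdown and 7.14% in the subline). PKP4 rose after knockdown (0.44 ± 0.06, adjusted p = 0.000276, or 0.0724 with the 8 libraries fitted together). ARVCF, a relative of CTNND1, rose in the subline (1.72 ± 0.29, adjusted p = 0.028).

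Of 18 other genes named CDH only 4 passed the count filter in the knockdown libraries, and 3 of them fell. That is 75.0% called, beside 45.7% of all genes. CDH5, the cadherin of endothelium, had 30.1 and 23.9 TPM in shNTC and 16.9 and 13.3 TPM in shHSF1 (-0.91 ± 0.13, adjusted p = 0.000503). The other endothelial markers were below 1 TPM in every group. CDH26 fell by 1.21 ± 0.26 (adjusted p = 0.00355) and CDH23 by 0.66 ± 0.11 (adjusted p = 0.00108). CDH5 was also the 1 of 3 that changed in the subline (33.3%, beside 7.14% of all genes), where it fell by 0.87 ± 0.18 (adjusted p = 0.048). Of 14 atypical cadherins and protocadherins tested after knockdown 8 rose, 2 fell and 4 did not pass (71.4% called, beside 45.7% of all genes). Among those that rose, FAT2, PCDH12, CLSTN2 and PCDH19 stayed below 1 TPM in every library of the pair. With the 8 libraries fitted together 5 of 16 were higher and 1 lower, beside 21.4% of all genes called. Fewer were also called without shHSF1 replicate 1, as was so over all genes. Among the changed genes were CELSR3 at 1.54 ± 0.15 (adjusted p = 2.65e-05), PCDH7 at 0.70 ± 0.09 (adjusted p = 0.000178) and PCDH1 at -0.47 ± 0.06 (adjusted p = 0.000156). In the subline 1 of 14 rose and 3 fell (28.6% called, beside 7.14% of all genes), among the latter CELSR3 (-1.02 ± 0.20, adjusted p = 0.0408). PCDH19, which rose, had at most 1.015 TPM in any library of that pair. FAT2 and FAT3, which fell, had at most 0.868 and 0.0462 TPM.

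Among repressors of CDH1 4 of 9 rose after knockdown and 0 fell, while 22.2% of all genes rose and 23.5% fell. The share called in either direction, 44.4%, was close to the 45.7% of all genes. SNAI2 had 17.1 and 16.5 TPM in shNTC and 31.1 and 33.6 TPM in shHSF1 (0.87 ± 0.10, adjusted p = 0.000103), TCF3 rose by 0.57 ± 0.06 (adjusted p = 6.48e-05) and KLF8 by 0.59 ± 0.10 (adjusted p = 0.000791). With the 8 libraries fitted together SNAI2 did not pass (adjusted p = 0.179, the highest of 1.9e-11 to 0.179 over the settings). TWIST1, SNAI1, ZEB1, SNAI3 and TCF4 did not pass. Among epithelial activators 6 of 9 fell and 1, OVOL2, rose (0.56 ± 0.18, adjusted p = 0.0261), a called share of 77.8%. ESRP1, a splicing factor of epithelia, had 239 and 211 TPM in shNTC and 157 and 153 TPM in shHSF1 (-0.61 ± 0.06, adjusted p = 2.93e-05). EHF fell by 0.49 ± 0.06 (adjusted p = 9.01e-05) and GRHL3 by 0.88 ± 0.14 (adjusted p = 0.000713). In the subline edgeR called 0 of 8 repressors, with 1 at an unadjusted p under 0.05 and 0 by DESeq2. It called 1 of 9 activators, GRHL3 (1.27 ± 0.20, adjusted p = 0.0228), or 11.1%, beside 7.14% of all genes.

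The lists around CTNNB1 and the turnover of cadherins were split. The first of these lists holds the destruction complex that removes CTNNB1 and other genes of its turnover. In it 5 of 15 rose and 3 fell after knockdown (53.3% called, beside 45.7% of all genes). Among them were AMER1 (-1.45 ± 0.11, adjusted p = 6.41e-06), the tankyrase TNKS2 (0.53 ± 0.06, adjusted p = 6.88e-05) and the ubiquitin ligase subunit BTRC (-0.58 ± 0.10, adjusted p = 0.000897). Of the nuclear partners 3 of 13 rose and 6 fell (69.2% called). ZBTB33, the p120-catenin partner Kaiso, had 88.7 and 80.3 TPM in shNTC and 35.9 and 33.9 TPM in shHSF1 (-1.35 ± 0.07, adjusted p = 5.77e-07), BCL9 fell by 0.97 ± 0.08 (adjusted p = 8.17e-06) and LEF1 rose by 1.06 ± 0.12 (adjusted p = 6.03e-05). In the subline TCF7L1 alone changed among these 13 (7.69%, beside 7.14% of all genes). It rose by 2.99 ± 0.45 (adjusted p = 0.0209) from a low level of 0.247 and 0.266 TPM.

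Among genes of cadherin shedding and trafficking 4 of 16 rose, 4 fell and 8 did not pass after knockdown. The called share of this list was thus only a little above the 45.7% of all genes. The endosomal GTPases RAB5A (-0.99 ± 0.09, adjusted p = 1.35e-05) and RAB11A (-0.89 ± 0.07, adjusted p = 6.24e-06) and the exocyst subunit EXOC3 (-0.59 ± 0.06, adjusted p = 5.29e-05) were among those that fell. Of the kinases and phosphatases that act on catenins 7 of 14 rose and 3 fell (71.4% called). PTPN11 had 192 and 174 TPM in shNTC and 80.6 and 87 TPM in shHSF1 (-1.20 ± 0.06, adjusted p = 4.2e-07), and PTPRK and FYN rose by 0.81 ± 0.05 and 0.92 ± 0.06 (adjusted p = 2.89e-06 and 3.42e-06). In the subline edgeR called 0 of 16 trafficking genes (2 at an unadjusted p under 0.05, 1 by DESeq2). It called 0 of 15 genes of the destruction complex and CTNNB1 turnover (2 at an unadjusted p under 0.05, 0 by DESeq2). Of the kinases and phosphatases it called 1 of 14, PTPRM (-1.34 ± 0.20, adjusted p = 0.0209). Over all genes 7.14% were called there.

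**Figure D5:**
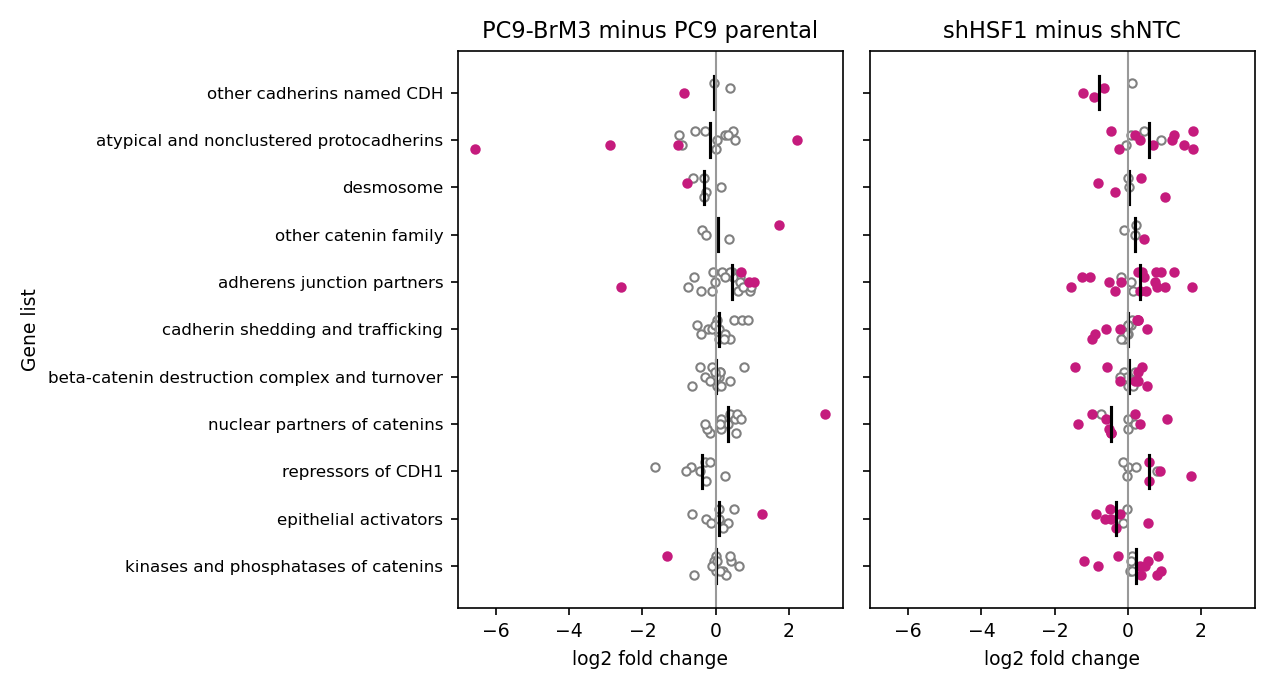
Log2 fold changes of the tested genes of 11 lists, with PC9-BrM3 minus PC9 parental on the left and shHSF1 minus shNTC on the right. Each point is a gene, filled where the adjusted p is under 0.05, and the black line is the list's median; the medians for the knockdown run from -0.78 for other CDH genes to 0.57 for protocadherins and for CDH1 repressors.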

How the data were processed

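RNA-seq read counts per gene from 8 libraries were used. Per the file headers, the authors made the deposited counts with featureCounts 1.6.1, reverse-stranded, summing exons for each gene of an Ensembl GRCh37 annotation; Trim Galore, HISAT2 and DESeq2 are named per the submitters' processing notes, without versions. Reads mapping to near-identical copies can be lost, and genes on opposite strands are kept apart.

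Each comparison was fitted on its own 4 libraries with edgeR 4.0.16 in R 4.3.3 (filterByExpr with a minimum count of 10 and total of 15, TMM factors, robust quasi-likelihood F test, Benjamini-Hochberg adjustment over all genes tested, threshold 0.05), after tests on simulated data. Standard errors are the fold change over the root of F. CPM uses TMM factors over all 8 libraries, and TPM uses the exon lengths in the files. DESeq2 1.42.0 and other settings were alternatives. No pair of replicates agreed within sampling noise (chi-square of 12 to 335 per degree of freedom), and intervals cover counting error only. With 2 residual degrees of freedom the spread is estimated mostly across genes.

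The members and lists were chosen with earlier results of these data known. From each list up to 3 genes with the smallest p were named if they passed and reached a mean of 1 TPM in 1 group. Protocadherins called at low levels are named as well. For members spanning more than 1 (log2) over the groups, the 3 nearest genes were named. Candidates had a mean of at least 5 CPM and were tested in both comparisons. A gene that this rule names is not reported here.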

Additional observations from a re-analysis of the deposited data

How the results depend on the processing

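JUP and CTNNA1 after knockdown and CDH13 in the subline kept their direction and call under all 10 other settings. After knockdown 7701 genes were called, 6044 to 6514 without 1 library and 3873 with all 8 libraries in 1 fit, where CDH1 (0.38) and CTNNB1 (-0.19) were not called. With upper-quartile factors CTNNB1 was -0.10, CDH3 0.05 and CTNND1 0.01, the last 2 changing sign. Without 1 library CTNNB1 ran from -0.19 to -0.15 and was never called, CDH3 ran from -0.07 to 0.03 and CTNND1 from -0.12 to 0.00. CDH3 was 0.02 without shNTC replicate 1 and 0.03 without shHSF1 replicate 2.

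For the subline 1240 genes were called, 3159 with no filter, 3813 with all 8 libraries, 2149 by DESeq2 and 402 to 9228 without 1 library. CDH3 was called with no filter (-0.62) and with all 8 libraries (-0.60). Without 1 library CDH1 ran from -0.02 to 0.26, CDH3 from -0.75 to -0.46, CDH24 from 0.07 to 0.56, CTNNB1 from -0.91 to -0.20, CTNND1 from 0.22 to 0.30 and JUP from 0.19 to 0.51. The cause of these changes was not tested.

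Replicate numbers did not pair the samples (correlation of same-numbered deviations 0.02 and -0.01). With a replicate block 8015 and 1328 genes were called and no member's call changed. Of the values of named list genes 308 of 310 for the knockdown and 78 of 100 for the subline kept their call and none reversed; most of those lost were without a PC9 parental library, and the block also lost CELSR3, DSG2 and LIMA1, and DESeq2 size factors lost AFDN. JUP as a share of JUP plus CTNNB1 was 18.3%, 42.1% and 55.6% in PC9 parental, shNTC and shHSF1 without the bases shared with KRT17, an alternative chosen after seeing the data, against 15.7%, 37.6% and 50.9%.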
